A study of Mus musculus with 5 samples.

Results

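The contact map of homozygous intraTAD3 limb buds was compared with the wild-type map of the Shh locus. IntraTAD3 was 1 of the 5 mutant libraries of the series, and the comparison took in all 155,961 pairs of 5 kb bins in chromosome 5, 27,480,001 to 30,270,000 (GRCm38, mm10). The intraTAD3 embryos were at E10.5 and came from mating, and 1 library was made from their limb buds by capture Hi-C, which enriches ligated DNA pairs of a chosen region before sequencing. Wild type is a map named for E10.5 limb buds that belongs to no sample, and the series type includes a third-party reanalysis, so genotype and origin of the library cannot be told apart in any ratio to it. The other 4 mutant maps, used only as a reference here, were IntraTAD2 and intraTAD2-i4CTCF, whose embryos also came from mating, and the tetraploid aggregation embryos intraTAD2-2xBorCTCF and intraTAD2-1xBorCTCF, each E10.5, homozygous and 1 library. They are called intraTAD2, i4CTCF, 2xBorCTCF and 1xBorCTCF below, and the names of the last 3 hold that of the intraTAD2 allele. No label states what the intraTAD3 allele changes, so it is described by its map alone. With 1 library on each side there was no test, and the 95% intervals below hold counting error alone and say nothing of how embryos vary.

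Shh encodes the secreted signal that sets the digit pattern of the limb from the posterior margin of the bud. Its limb enhancer, the ZRS, lies far away in an intron of the neighbouring gene Lmbr1, across a stretch of DNA with hardly any protein-coding genes. Shh, this gene desert and most of Lmbr1 form 1 topologically associating domain, a segment whose parts touch each other more than they touch DNA outside it. Domain borders in mammals are often held by the DNA-binding protein CTCF.

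The deposited values are contacts scaled so that every bin has the same total. Whole contacts were recovered from them, 2,849,095 in intraTAD3 and 1,646,616 in wild type, so the mutant map was 1.73 times as deep. Below, "contact" is the scaled value over the average for its distance in its own map, so that 1 is the average. In balanced signal at 20 kb or more, intraTAD3 had 37.1% in pairs under 100 kb apart against 34.6% in wild type (34.9% to 36.7% in the other 4 maps). It had 9.81% in pairs over 1000 kb apart against 11.7% (9.88% to 11.5%). The intraTAD3 map was therefore richer in short contacts than wild type before distances were set equal. Of the 558 bins, 10 with few partners in any map were left out.

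A pair of places set the intraTAD3 map apart. The first is a stretch of 15 kb within Lmbr1, chromosome 5, 29,305,001 to 29,320,000, that had almost no contacts. Its bin at 29,305,001 held 0 contacts in intraTAD3 and 3019 in wild type. The bin at 29,310,001 held 174 against 7773, and that at 29,315,001 held 828 against 8245. The 3 bins together reached 3.45% of the average bin of the map, where wild type reached 115%. Beside the stretch most contacts were present. On the Shh side, the bin at 29,300,001 held 82.5% of the average bin in intraTAD3, below the 100.1% of wild type and the 97.6% to 104.5% of the other 4 maps. On the other side, the bin at 29,320,001 held 96.8% against 73.2%. The other 4 maps had 83.1% to 97.6% there, so intraTAD3 lay within their range and wild type below it. The stretch lies inside the gene body of Lmbr1 (29,229,802 to 29,378,421), and its bins are kept apart from every contact value below.

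The second place is a single bin of the gene desert, chromosome 5, 28,875,001 to 28,880,000, which held far more contacts in intraTAD3 than in any other map. The bin lies between the lncRNA genes Gm42243 (28,840,656 to 28,858,429) and Gm35688 (28,890,378 to 29,004,724), and overlaps no annotated gene. It held 40,119 contacts in intraTAD3, 415% of the average bin. Wild type had 4110 contacts there (74.3% of its average bin), and the other 4 maps had 104% in intraTAD2, 109% in i4CTCF, 115% in 2xBorCTCF and 121% in 1xBorCTCF. IntraTAD3 alone stood far above the rest. Relative to wild type this was a ratio of 5.58, and relative to the median of the other 4 maps 3.70. Among the 547 bins compared, it was the bin with the highest ratio in both comparisons. The next highest ratio to the median of the other maps was 1.33, at 28,720,001. The next highest ratio to wild type was 3.90, at 29,040,001, a bin with 5.78% of the average contacts in wild type. There the ratio to the other mutant maps was 1.00. Some bins left out of this ranking had recovered contacts in only 1 of the 2 maps. The bin at 29,055,001 held 2148 in intraTAD3 and 0 in wild type, and that at 30,225,001 held 1373 against 0. The bin at 29,180,001 held 0 against 416.

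**Figure D1:**
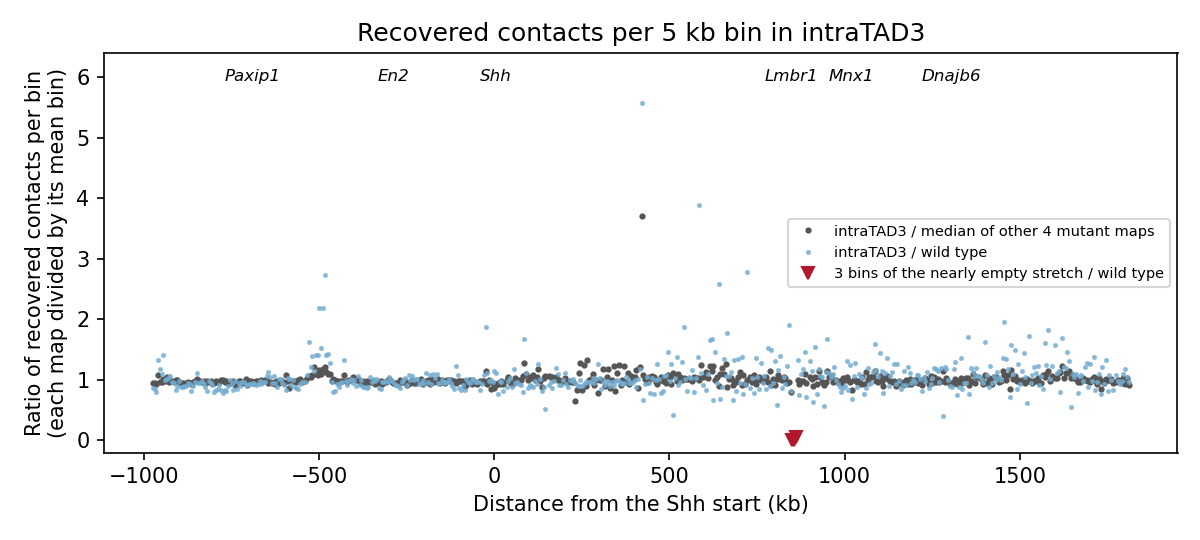
Recovered contacts per 5 kb bin in intraTAD3, each map divided by its average bin, as a ratio to wild type (blue) and to the median of the other 4 mutant maps (grey), against the distance in kb from the first base of Shh in coordinate order. Most bins lie near 1, the bin at 28,875,001 reaches 5.58 and 3.70, and the 3 bins of the stretch in Lmbr1 (red triangles) lie near 0.

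The added contacts of the bin at 28,875,001 went to near and far partners alike, and most of all to the bin itself. Its contacts within itself numbered 3894 in intraTAD3 against 86 in wild type, a ratio of 26.2 at equal depth (interval 21.1 to 32.8). With its direct neighbours the ratio was 3.71 (3.41 to 4.03), from 4203 contacts against 655. From 20 kb to under 50 kb it was 4.75 (4.39 to 5.14). At 200 kb to under 400 kb it was 6.42 (5.88 to 7.02), and at 800 kb or more 5.98 (5.24 to 6.85). The increase thus reached across the whole captured region and was smallest with the direct neighbours. Balancing scales such a bin down to the same total as every other, so its balanced contact with Shh was 2.37 in intraTAD3 and 1.92 in wild type, with a log2 ratio of 0.30 (-0.17 to 0.76) that includes no difference, although the bin and Shh shared 451 contacts against 47.

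Across both places the contact between the flanking DNA changed, in opposite directions. Contacts between the 20 kb on the left and the 20 kb on the right of the stretch in Lmbr1 averaged 1.37 in intraTAD3 (2279 contacts) and 0.828 in wild type (591 contacts). They were 0.732 in intraTAD2, 0.735 in i4CTCF, 0.869 in 2xBorCTCF and 0.778 in 1xBorCTCF. The intraTAD3 value lay above all 5 others, with a log2 ratio to wild type of 0.73 (0.57 to 0.89). This counts distance along the reference genome. If the 15 kb were taken to be missing from the allele and distances shortened by it, the ratio was -0.22 (-0.39 to -0.060). At the edge of the bin at 28,875,001, contacts between the 20 kb on either side averaged 0.600 in intraTAD3 (8054 contacts) and 0.918 in wild type (2960 contacts). The values were 0.866 in intraTAD2, 0.903 in i4CTCF, 0.902 in 2xBorCTCF and 0.917 in 1xBorCTCF. Here intraTAD3 lay below all 5 others, with a log2 ratio of -0.61 (-0.69 to -0.54).

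**Figure D2:**
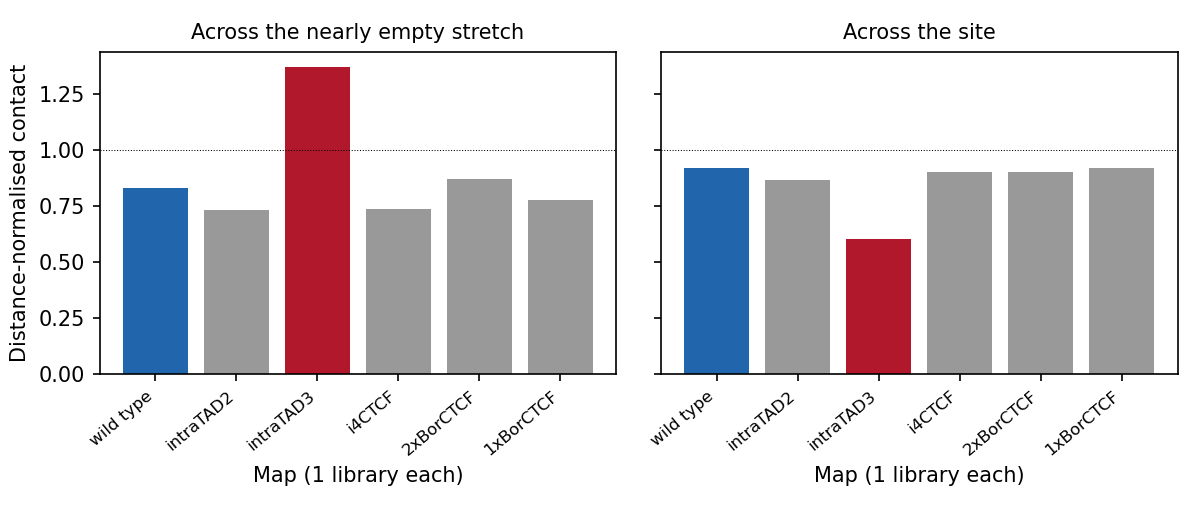
Distance-normalised contact between the 20 kb on either side of the nearly empty stretch in Lmbr1 (left) and of the edge at 28,875,001 (right) in the 6 maps, 1 bar and 1 library each, with no error bar. IntraTAD3 is the highest bar on the left (1.37) and the lowest on the right (0.600).

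At reference distances these 2 places were the extremes among the bin edges measured. Both were chosen with values of these maps known, so their ranks describe the maps and are no separate support. The same measure was taken at 546 bin edges, and its median log2 ratio was -0.0050. It was at least 25% higher with an interval above 0 at 2 edges (0.366%) and at least 20% lower with an interval below 0 at 3 edges (0.549%). The edge of the stretch was the highest of all, a rank that holds only for the reference distance, since the value turned to -0.22 with distances shortened by 15 kb. The next was 0.33 (0.21 to 0.44) at 28,485,001, in the lncRNA gene 9530036O11Rik beside Shh, a bin that is empty in both maps. The 3 lower edges were 28,875,001 with -0.61, 28,880,001 with -0.58 and 28,870,001 with -0.37, and the flanks of all 3 take in the bin at 28,875,001. Next lowest was 30,065,001 in the nucleotide synthesis gene Tyms, with -0.30 (-0.54 to -0.058).

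**Figure D3:**
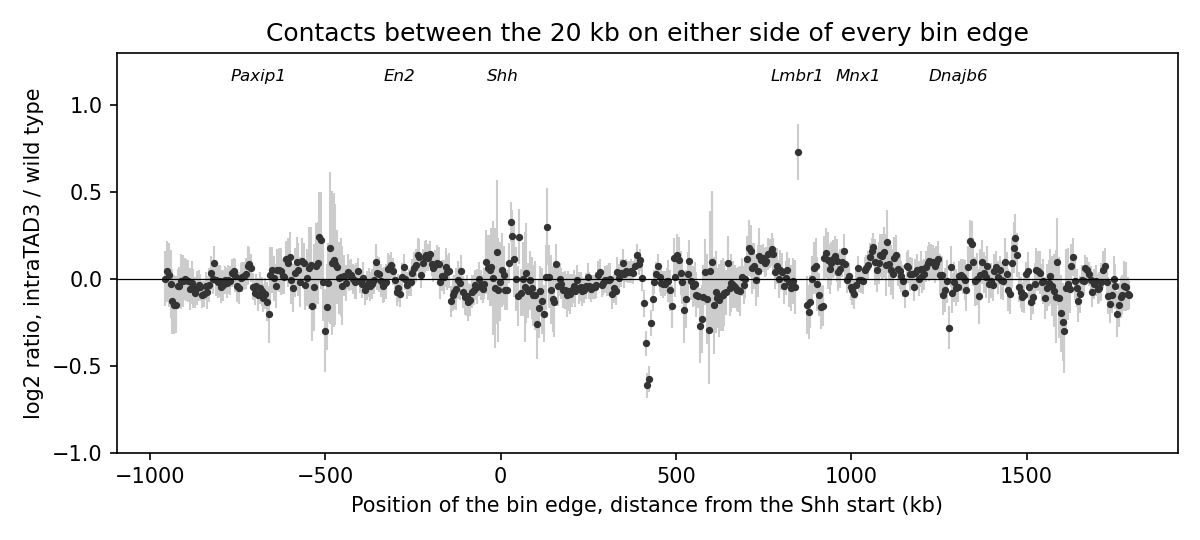
Log2 ratio (intraTAD3 over wild type) of the contact between the 20 kb on either side of each bin edge, with 95% counting intervals as grey lines, against the distance in kb from the first base of Shh in coordinate order. The stretch in Lmbr1 stands out at 0.73 and the edges around 28,875,001 at -0.61, -0.58 and -0.37.

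The lower contact across 28,875,001 did not rest on the overfull bin. With that bin left out, contacts between the 20 kb before it and the 20 kb after it were 0.566 in intraTAD3 and 0.868 in wild type, a log2 ratio of -0.62 (-0.70 to -0.54). The other 4 maps lay between 0.855 and 0.884. In whole contacts without any balancing the ratio was -0.77 (-0.85 to -0.69), from 2882 contacts against 2723 in a map 1.73 times as deep. With the overfull bin kept and no balancing, the ratio was 0.038 (-0.030 to 0.11), so the direction then turned. Scaled by map total with the bin left out it was -0.55 (-0.63 to -0.47). Contact between the DNA on the 2 sides was thus lower on all 3 scales run once the overfull bin was set aside.

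Both changes were smaller at longer distances. Pairs with 1 bin between the Shh border and 28,875,001 and 1 bin between 28,880,001 and the stretch had a log2 ratio of -0.48 (-0.54 to -0.41) when 5 kb to under 50 kb apart. The ratio was -0.21 (-0.26 to -0.16) at 50 kb to under 100 kb and -0.026 (-0.064 to 0.013) at 100 kb to under 200 kb. At 100 kb to under 200 kb both intraTAD3 (1.04) and wild type (1.06) lay below the 1.08 to 1.14 of the other 4 maps. At 400 kb to under 800 kb the ratio to wild type was positive, at 0.099 (0.071 to 0.13). Pairs that lay wholly on 1 side of the bin did not share the loss under 50 kb. Between the Shh border and the bin their ratio was 0.00078 (-0.021 to 0.023) under 50 kb, and between the bin and the stretch 0.0051 (-0.018 to 0.029). At 100 kb to under 200 kb these same-side pairs were higher in intraTAD3, at 0.089 (0.054 to 0.12) and 0.063 (0.022 to 0.10), where pairs across the bin were at -0.026. Pairs across the stretch in Lmbr1 had 1 bin between 28,880,001 and the stretch and 1 bin beyond it, up to 30,270,000. They ran the other way, with 0.73 (0.59 to 0.88) under 50 kb and 0.18 (0.088 to 0.26) at 50 kb to under 100 kb. At 100 kb to under 200 kb they were at 0.058 (-0.000089 to 0.12). At 400 kb to under 800 kb they were at -0.084 (-0.12 to -0.049). There intraTAD3 (0.589) lay within the 0.571 to 0.600 of the other 4 maps, and wild type (0.624) above all 5. The domain ends at 29,355,000, so these pairs also take in DNA outside it. Inside the domain, DNA between the stretch and the border had more contact across the stretch in intraTAD3. With the part between the bin and the stretch it was 1.13 against 1.05 (0.099, 0.037 to 0.16). With the Shh-side part it was 2.70 against 2.42 (0.16, 0.082 to 0.24).

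The size of both changes was also put on a scale of distance. Pairs within 50 kb on either side of the stretch matched the wild-type level most closely when they were counted as 10 kb nearer in intraTAD3, with a log2 ratio of 0.034, against 0.34 at the reference distance and -0.15 at 15 kb nearer. For pairs across 28,875,001 with the overfull bin left out, the closest match was at 15 kb farther (0.045), against -0.32 at the reference distance and -0.067 at 10 kb farther. The flanks of the stretch therefore met as often as wild-type DNA about 10 kb closer, and the flanks of the bin in the desert as often as DNA 10 kb to 15 kb farther apart. Steps of 5 kb are the finest these maps allow.

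Some contacts of the stretch itself remained in intraTAD3, nearly all in its last bin, 29,315,001 to 29,320,000. Outside the stretch this bin shared 739 contacts with kept bins, against 7152 in wild type, which is 5.97% of wild type at equal depth. Of these, 29.4% (26.1 to 32.8, exact binomial) went to bins within 50 kb, against 22.0% (21.1 to 23.0) in wild type. With Shh it shared 18 contacts against 143, a share 1.22 times that in wild type. The remaining contacts were thus few, and somewhat more local than in wild type.

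One distant partner ranked highest among them, and it was the overfull bin at 28,875,001. The bin at 29,315,001 shared 10 contacts with it in intraTAD3 and 9 in wild type. Relative to all partners of the bin this was 10.8 times the wild-type share (3.93 to 29.9, counting error only). It was the highest of the 344 partners that lie 100 kb or more away and have at least 5 contacts in wild type, where the median was 0.718. Next came 30,000,001 with 5.81 (3 contacts against 5, 0.902 to 29.8) and 28,890,001 with 4.40 (5 against 11, 1.20 to 13.7). In the other 4 maps the same share at 28,875,001 was 1.18 in intraTAD2, 1.55 in i4CTCF, 1.91 in 2xBorCTCF and 1.47 in 1xBorCTCF times that of wild type. The bin at 28,875,001 also held more contacts in all in intraTAD3, by 5.58 times relative to wild type. With its partners 400 kb to under 800 kb away its ratio was 5.81 at equal depth (5.27 to 6.41), which lies within the interval of 3.93 to 29.9. The part of this gain in the raised share was not tested. The 8 bins within 20 kb of 28,875,001 had 22 contacts against 143, a share 1.49 times the wild-type one. The bin at 29,310,001 had contacts with 6 bins in all, 89 of them with 29,315,001 and 81 within itself.

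The contact of Shh with Lmbr1 was then taken separately on the 2 sides of the stretch. The Shh window is the gene (28,456,840 to 28,467,101) with 1 bin either side. On the Shh side of the stretch (29,220,001 to 29,305,000) its contact with Lmbr1 was 6.93 in intraTAD3 and 5.77 in wild type, a log2 ratio of 0.26 (0.17 to 0.35) from 3845 and 1940 contacts. The other 4 mutant maps lay between 5.01 and 6.54, all below intraTAD3. Beyond the stretch (29,320,001 to 29,385,000) the contact was 5.80 against 5.51, a log2 ratio of 0.073 (-0.056 to 0.20), which includes no difference, and the other 4 maps lay between 4.50 and 5.39. Scaled by map total, with no correction for distance, the log2 ratios were 0.12 (0.034 to 0.21) and -0.066 (-0.19 to 0.063). Beyond the stretch 3 other settings put the interval above 0, with 0.17 (0.058 to 0.29) in unbalanced contacts, 0.17 (0.081 to 0.26) against the mean of the other 4 mutant maps and 0.22 (0.040 to 0.40) for the Shh window without flanking bins. Whether the 2 sides differ from each other was not tested.

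Bin by bin, the Lmbr1 window, with its flanking bin, has 17 bins on the Shh side. Of these, 5 had an interval above 0 in their contact with Shh and 0 one below. Over the region, 6.51% of 538 bins of 5 kb had an interval above 0 in their contact with Shh and 4.83% one below. Beyond the stretch 2 of 12 had an interval above 0 and 0 one below. The summit of the Shh contact in Lmbr1 was at 29,290,001 in intraTAD3, with 11.6 against 8.60 in wild type (log2 ratio 0.43, 0.20 to 0.67). In wild type it was at 29,270,001, with 9.02 against 10.1 in intraTAD3 (0.17, -0.11 to 0.45). The bin at 29,275,001 had 11.1 against 8.43 (0.39, 0.17 to 0.62). In wild type these 3 bins rest on 152 to 276 contacts each, and whether the summit differs between the maps was not tested. The high contact of Shh with this part of Lmbr1 was therefore present in intraTAD3, directly beside the nearly empty stretch. The ZRS was not located here, and the bins of the stretch are left out of these values. They are therefore no measure of the contact of Shh with its enhancer.

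Along the gene desert, Shh had more contact with 5 of the 7 windows of 100 kb than in wild type, and with 0 less (3 windows were higher when scaled by map total). Of all 26 windows of 100 kb in the region, 26.9% were higher and 15.4% lower by the same rule. The window farthest from Shh (29,075,001 to 29,175,000) was the highest, with 2.75 against 2.27 (0.28, 0.14 to 0.42), within the 2.04 to 2.79 of the other 4 maps. In the 2 windows nearest Shh, intraTAD3 also lay within the range of the other 4 maps, with 0.664 (0.629 to 0.725) and 0.915 (0.868 to 1.03), and wild type below all 5. The window from 28,775,001, which ends where the overfull bin begins, had 1.47 against 1.27 (0.21, 0.11 to 0.30), while the other 4 maps had 1.10 to 1.32. The lowest ratio was that of the window from 28,675,001, in which contacts were 1.05 in both maps (0.0076, -0.094 to 0.11). In the window that begins with the overfull bin the contact was 1.99 against 1.88 (0.076, -0.038 to 0.19). The 5 bins centred on the overfull bin had a contact with Shh of 1.94 against 1.51 (0.36, 0.15 to 0.57), with 1.21 to 1.60 in the other 4 maps. The same 5 bins had 1.57 against 1.36 with Lmbr1 on the Shh side of the stretch (0.20, 0.086 to 0.32) and 1.42 against 1.24 beyond it (0.20, 0.020 to 0.37).

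In windows of 25 kb across the whole region, 7 of 109 (6.42%) had at least 25% more contact with Shh and an interval above 0, and 8 (7.34%) had at least 20% less and an interval below 0. With no minimum size, 11.9% had an interval above 0 and 8.26% one below. The higher windows were mostly in the domain. They were the window from 28,855,001, which holds the overfull bin (1.94 against 1.44), 2 desert windows from 29,030,001 (3.25 against 2.48) and 29,080,001 (2.58 against 1.81), the window of Rnf32 from 29,180,001 (5.00 against 3.81) and the window of Lmbr1 from 29,280,001 (9.39 against 7.43). The other 2 lay beyond Lmbr1, from 29,730,001 and 30,105,001, with 127 and 57 contacts in intraTAD3. Of the 8 lower windows, 6 lay on the En2 side, among them that of En2 from 28,155,001 (1.38 against 1.73) and that of Cnpy1 from 28,205,001 (0.919 against 1.23). Of the 8, 0 lay in the domain.

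**Figure D4:**
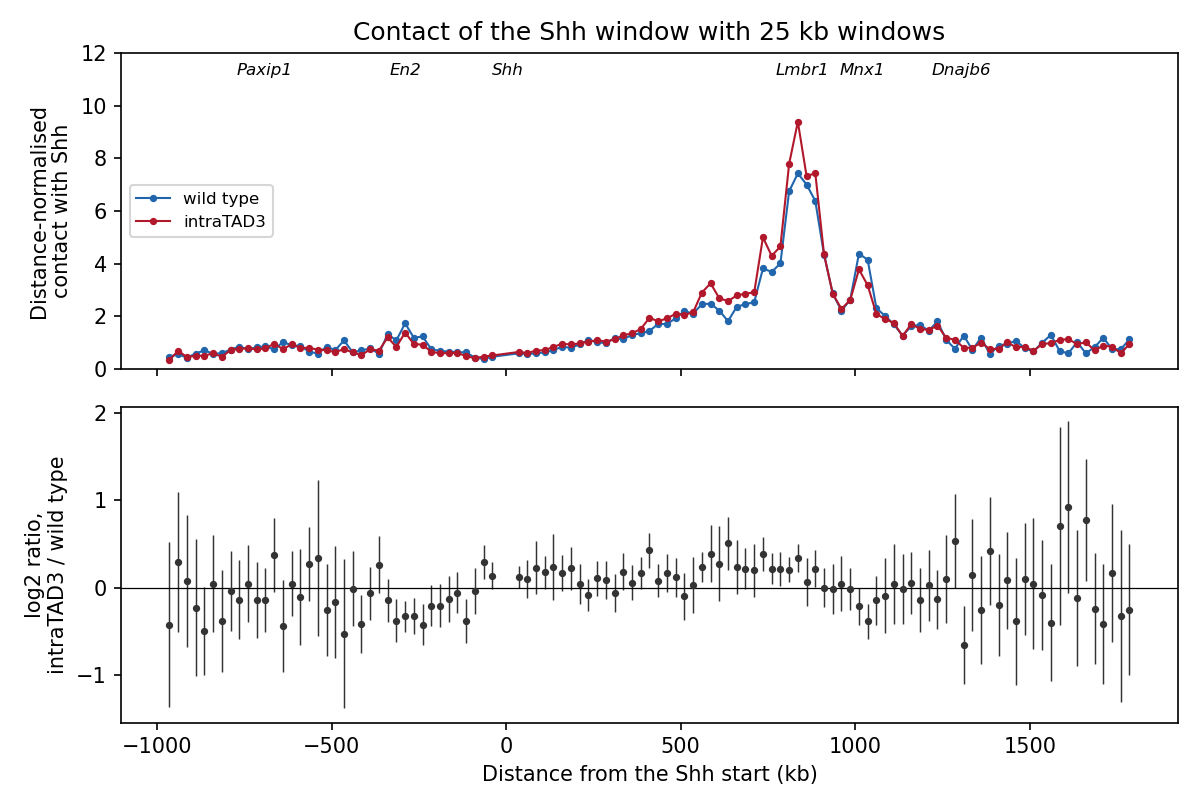
Top, distance-normalised contact of the Shh window with windows of 25 kb in wild type (blue) and intraTAD3 (red), against the distance in kb from the first base of Shh in coordinate order. Bottom, the log2 ratio with its 95% counting interval. The red line lies above the blue one at Lmbr1 (9.39 against 7.43 in the window from 29,280,001) and below it at En2 (1.38 against 1.73).

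Gene by gene, 2 of the 13 listed neighbours had more contact with Shh beyond counting error, 3 had less, and 8 had an interval that includes no difference. Of all 56 annotated genes of the region, measured the same way, 12.5% were higher and 14.3% lower. In unbalanced contacts 8 genes lay outside counting error in place of 5. The 2 that were higher share the domain with Shh. Rnf32, a gene for a RING finger protein, had 4.53 against 3.71, with 3.07 to 4.37 in the other maps, and Lmbr1 outside the stretch had 6.46 against 5.66, with 4.80 to 6.05 in the other maps. The 3 that were lower lie outside it. They were the homeobox genes En2 (1.48 against 1.80, log2 ratio -0.28) and Mnx1 (4.23 against 5.20, -0.30), and Cnpy1 beside En2 (0.804 against 1.05, -0.38). In each of the 3 the level of intraTAD3 lay within the range of the other 4 mutant maps, which was 1.36 to 2.24 for En2, 3.04 to 5.31 for Mnx1 and 0.764 to 1.14 for Cnpy1. The 8 others were Dpp6, Paxip1, Htr5a, Insig1 and Rbm33 on the En2 side and Nom1, Ube3c and Dnajb6 on the Mnx1 side, with log2 ratios from -0.11 (Dpp6) to 0.20 (Insig1).

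Genes outside the domain were also set against its 2 parts, before and after the bin at 28,875,001. Rbm33, which codes for an RNA-binding protein and adjoins Shh across the border, had more contact with both. With the part on the Shh side it was 0.563 against 0.529 (0.089, 0.048 to 0.13). The other 4 maps had 0.547 to 0.621 there, so intraTAD3 lay within their range and wild type below it. With the part between the bin and the stretch the contact of Rbm33 was 1.57 against 1.40 (0.17, 0.12 to 0.21). For the latter the other 4 maps had 1.37 to 1.51, all below intraTAD3. Cnpy1 had less contact with the Shh-side part, 0.596 against 0.666 (-0.16, -0.22 to -0.10), and so did En2 (0.481 against 0.536, -0.16, -0.27 to -0.042) and the serotonin receptor gene Htr5a (0.873 against 1.00, -0.20, -0.31 to -0.094). With the part between the bin and the stretch these 3 genes had intervals that include no difference. Paxip1, which codes for a protein that acts in DNA repair, had more contact with that second part (0.996 against 0.857, 0.22, 0.13 to 0.30), and the other 4 maps, at 0.991 to 1.10, were above wild type as well.

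Dpp6, a potassium channel subunit gene at the far end of the region, had less contact with the Shh-side part (0.813 against 0.856) and more with the DNA between the stretch and the border inside Lmbr1 (1.36 against 1.06). The other 4 maps had 1.31 to 1.35 there, so in this pair wild type stood below all 5 mutant maps.

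On the Mnx1 side, 4 genes were set against 3 parts, and 3 of these values had an interval that excludes no difference, all of them lower. Of all 1429 pairs of 50 kb windows, 249 had an interval that excludes 0, in either direction. Of the 285 such pairs between the domain and the Mnx1 flank, 43 did. Those windows differ in size from the parts used here. Between the stretch and the border inside Lmbr1, contacts were lower with Nom1, a nucleolar protein gene (0.529 against 0.605, -0.19, -0.37 to -0.019), and with the ubiquitin ligase gene Ube3c (0.883 against 0.980, -0.15, -0.27 to -0.032). The other 4 maps had 0.495 to 0.588 for Nom1 and 0.851 to 0.925 for Ube3c, so wild type lay above all 5 mutant maps. Mnx1 itself had 0.547 in both maps there, and 0.425 against 0.392 with the part between the bin and the stretch (0.12, -0.027 to 0.26). The chaperone gene Dnajb6 had less contact with the part between the bin and the stretch (0.509 against 0.543, -0.093, -0.18 to -0.0045). The other 4 maps had 0.465 to 0.519 there, so wild type again lay above all 5 mutant maps.

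The domain as a whole, 28,440,001 to 29,355,000 between the wild-type insulation minima, had slightly more internal contact in intraTAD3. It averaged 1.52 against 1.43 (0.086, 0.072 to 0.10), and the other 4 maps had 1.36 to 1.48. Contacts between the Shh-side part and the DNA between the stretch and the border were higher as well, at 2.70 against 2.42 (0.16, 0.082 to 0.24), with 2.26 to 2.57 in the other maps. Scaled by map total alone, the internal difference was 0.028 (0.018 to 0.038). Contacts across the 2 borders differed little. With the 500 kb on the En2 side they were 0.960 against 0.939 (0.032, 0.012 to 0.052), and with the 500 kb beyond the border inside Lmbr1 0.727 against 0.746 (-0.038, -0.060 to -0.015). Set against the mean of the other 4 mutant maps both directions turned, to -0.019 and 0.041, and scaled by map total the En2-side value was -0.11 (-0.13 to -0.094). The direction on the En2 side thus depended on the reference map and the scaling, and that inside Lmbr1 on the reference map.

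Insulation, the log2 contact across a bin edge within 100 kb relative to the region, differed at both borders by less than counting error. Next to Shh, at 28,440,001, it was -0.96 in intraTAD3 and -1.01 in wild type (difference 0.049, -0.037 to 0.13). Inside Lmbr1, at 29,355,001, it was -0.73 against -0.79 (0.061, -0.0034 to 0.13). In unbalanced contacts both intervals excluded 0, with a difference of -0.094 (-0.15 to -0.034) next to Shh, where the sign turned, and 0.12 (0.060 to 0.17) inside Lmbr1. Over 519 edges, 24.1% had a higher and 25.4% a lower score with an interval that excludes 0. At 28,875,001 the score was -0.13 against 0.011 (-0.14, -0.18 to -0.10), while the other 4 maps had 0.040 to 0.13. The 5 largest rises of the score were all at or beside the stretch in Lmbr1, up to 0.19 (0.13 to 0.25) at 29,320,001. They are given at the reference distance only. With distances shortened by the stretch, contact across it turned to -0.22, and the insulation difference at 29,355,001 was -0.047 (-0.11 to 0.017). The 5 largest falls lay together in the fatty acid oxidation genes Hadha and Hadhb, from 30,140,001 to 30,160,001, down to -0.19 (-0.24 to -0.14) at 30,150,001. Levels of the other 4 maps were not set beside these rises and falls.

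Over the whole region most window pairs were alike in both maps. Of 1429 pairs of 50 kb windows with at least 50 contacts in each map, 19 (1.33%) were at least 25% higher with an interval above 0 and 50 (3.5%) at least 20% lower with an interval below 0. The median log2 ratio was 0.0029. Scaled by map total alone, 1 was higher and 279 were lower, and in unbalanced contacts 90 were higher, so the balance of the counts follows the scaling. Of the 171 pairs within the domain or within 25 kb of it, 2 were higher and 0 lower, with a median of 0.062. Of the 285 pairs between the domain and the flank on the Mnx1 side, 3 were higher and 23 lower, with a median of -0.064. Contacts of the domain with the 500 kb beyond the border inside Lmbr1 averaged 0.746 in wild type and 0.727 in intraTAD3. The other 4 maps had 0.694 to 0.726 there, so wild type lay above all 5 mutant maps. At up to 200 kb, 0 of 210 pairs passed.

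**Figure D5:**
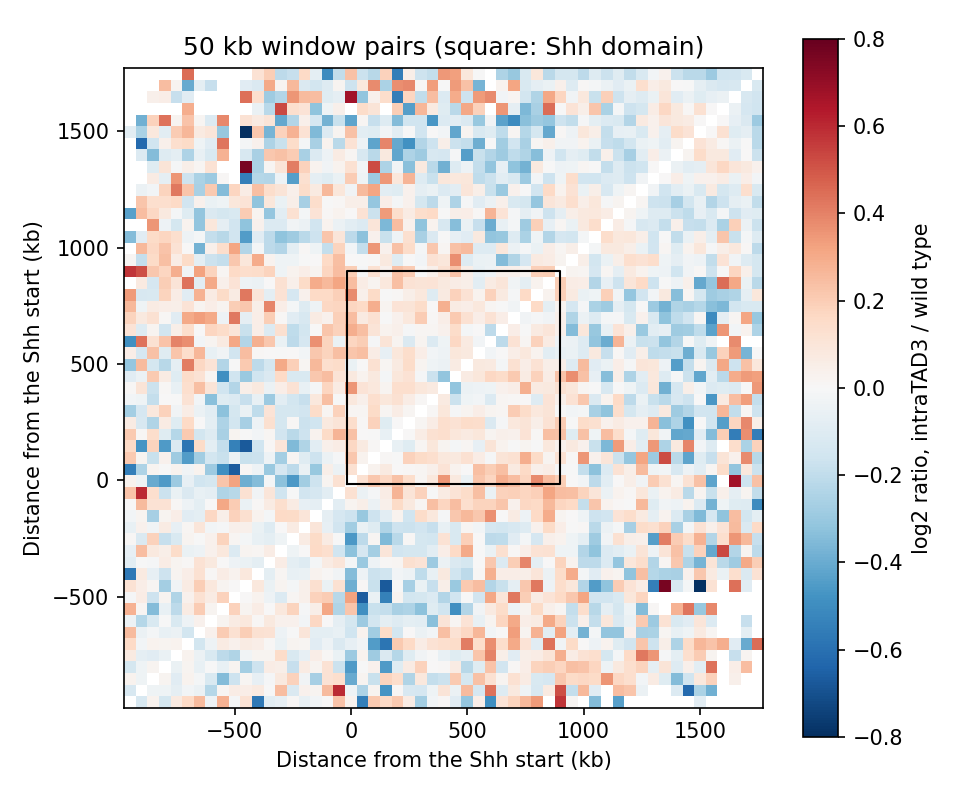
Log2 ratio (intraTAD3 over wild type) for pairs of 50 kb windows with at least 50 contacts in each map, on axes of distance in kb from the first base of Shh in coordinate order (white on the diagonal and where there are too few contacts). The square marks the Shh domain, where the median is 0.062, and the pairs between it and the flank on the Mnx1 side have a median of -0.064. In contacts of the domain with the 500 kb beyond the border inside Lmbr1, wild type lay above all 5 mutant maps.

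Among pairs up to 1000 kb apart, of which 6 of 889 were higher and 31 lower, those with the highest ratio included the windows of Shh and Lmbr1. The window of Shh (28,430,001 to 28,480,000) and the first whole window of Lmbr1 (29,230,001 to 29,280,000) had 6.28 against 4.83 (0.38, 0.24 to 0.52) from 2706 and 1396 contacts. Higher still was the pair of Dpp6 (from 27,530,001) and Rbm33 (from 28,380,001), with 0.571 against 0.378 (0.59, 0.22 to 0.97), and that of Lmbr1 (from 29,280,001) with Tyms (0.45, -0.044 to 0.94), whose interval includes no difference. The other 3 were the desert from 28,880,001 with the gap before Nom1 (0.37, 0.17 to 0.57), Rbm33 from 28,280,001 with the desert from 29,030,001 (0.37, 0.019 to 0.72), and the desert from 29,080,001 with Tyms (0.36, -0.18 to 0.89).

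All 6 pairs with the lowest ratio joined windows on the En2 side to each other or to the desert next to Shh, over 550 kb to 1000 kb. The lowest joined 27,980,001 with 28,580,001, neither of which holds a protein-coding gene, at 0.609 against 0.970 (-0.67, -1.08 to -0.26). Next was 27,930,001 with 28,480,001 (-0.67, -1.12 to -0.21). Others joined Paxip1 with the desert from 28,580,001 (-0.59, -0.99 to -0.19), Dpp6 and Speer4b with Insig1 (-0.57, -0.87 to -0.28), Dpp6 and Speer4b with the desert from 28,480,001 (-0.55, -1.23 to 0.13), and 27,930,001 with 28,580,001 (-0.54, -1.04 to -0.040). These pairs held 146 to 303 contacts in wild type. Windows with at least 3 bins under 50% of the average contacts in wild type made up 650 of the 1429 pairs, and 4.92% of those were lower against 2.31% of the rest.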

How the data were processed

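The authors deposited 1 balanced contact signal per pair of 5 kb bins and map. The file names carry MAPQ30 and KR, read here as a mapping quality minimum of 30 and Knight-Ruiz balancing. Bowtie2 2.2.6 is named in the submitters' processing notes, which list mm9 as well as mm10. For duplicates, contact calling and probes the steps are not stated. Per the labels' protocols, chromatin was cut with DpnII. The values of 1 column (wild type) come from no listed sample and are given as the authors' map.

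Each value is a whole number of contacts times 2 bin factors, which were solved for with Python 3.11.15 and numpy 2.4.6. All recovered values were whole within 0.01. The recovery and the intervals were tested on simulated data. Bins with under 25% of the median partners in any of the 6 maps were left out. Undefined values numbered 61 in intraTAD3 and 36 in wild type. Intervals are weighted Poisson errors of the recovered contacts on the log2 scale, at 95%. Read pairs carry no molecular identifiers, so intervals cover counting error only. Genes come from RefSeq on GRCm38, and a gene's window is its body with 1 bin either side.

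The members, lists, the nearly empty stretch and the bin at 28,875,001 were chosen with earlier results of these data known. Named window pairs were the 6 highest and 6 lowest up to 1000 kb apart with at least 50 contacts in each map, named genes the 13 neighbours of Shh and those in named windows. Named insulation edges were the 5 largest rises and falls. The parts of the domain, the distance scale, the single bins of Lmbr1 and the gene contacts of the domain parts were chosen after values had been seen. Alternatives were other scalings, bin filters, windows and the mean of the other 4 mutant maps as reference.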

Additional observations from a re-analysis of the deposited data

How the results depend on the processing

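Of the 14 results recomputed, 59 values under other settings stayed within the counting interval (or, for counts, within 1.5 times) and 26 moved further. Another 5 turned where the reported interval excluded 0, and 4 of the others changed sign where it included 0. Scaled by map total only, the log2 ratio of intraTAD3 to wild type was 0.12 for Shh with Lmbr1 on the Shh side of the nearly empty stretch, -0.066 beyond it and 0.028 inside the domain. On that scale it was -0.11 across the En2-side border, where it turned, -0.15 across the border inside Lmbr1, 0.91 across the stretch and -0.48 across 28,875,001. In unbalanced contacts it was 0.067 inside the domain, 0.95 across the stretch and 0.038 across 28,875,001, where it turned, and the insulation difference at the border next to Shh was -0.094. With the overfull bin left out, alternatives chosen after seeing the data, the ratio across 28,875,001 was -0.77 unbalanced and -0.55 by map total.

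With distances shortened by the stretch, the ratio across the stretch turned to -0.22, that across the border inside Lmbr1 was -0.063, and the insulation difference there was -0.047. Against the mean of the other 4 mutant maps, contacts across the En2-side border turned to -0.019 and across the border inside Lmbr1 to 0.041, and the insulation difference next to Shh was -0.055. A flank of 250 kb gave 0.078 across the En2-side border, flanks of 50 kb gave 0.35 across the stretch and -0.32 across 28,875,001, and the Shh window without flanking bins gave 0.22 beyond the stretch. Unbalanced, 8 in place of 5 genes lay outside counting error, and scaled by map total 3 in place of 5 desert windows were higher. The 19 higher window pairs became 90 unbalanced, 1 by map total, 12 against the other mutant maps and 3 at 1.5-fold, and the 50 lower pairs became 279 by map total and 4 at 1.5-fold. In balanced values the stretch held 66.7% of the average bin, since balancing sets each bin that has contacts to the same total. The cause of the other shifts was not tested.

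No paired analysis was possible because each genotype had 1 library and, likewise, leaving out a library was not run. Depth limits single bins most: 10 contacts in intraTAD3 and 9 in wild type stand behind the pair of 29,315,001 and 28,875,001.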
